A study of Mus musculus with 29 samples.

Results

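Thoracolumbar spinal cord of wild-type mice taken 4 h after aortic cross clamping was compared with the same cord region taken 1 h after it. Aortic cross clamping (ACC) stops flow in the aorta for a time and so cuts off the blood supply of the lower cord, as happens in repair of the thoracic aorta. The libraries were chosen by their labels for genotype, region, procedure and time, which gave 6 of the 29 libraries of the series: 3 at 4 h and 3 at 1 h, each from a separate mouse. All mice were wild-type C57BL6 animals, drawn from a colony of either sex with no sex given for a single library. At 4 h, littermates had been split at random into ACC and Sham mice, and the thoracolumbar cord was taken from both. At 1 h, the thoracolumbar and the cervical cord came from the same 3 clamped mice, and the cervical cord served the study as a control outside the ischemic territory. No Sham mice at 1 h and no cervical cord at 4 h were analysed here. The 4 h and the 1 h libraries were deposited in separate tables, so the time after clamping and the table cannot be told apart. The comparison addresses how the response of the clamped cord differed between an early and a later time.

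When blood flow to neural tissue stops and returns, cells first transcribe immediate early genes such as Fos and Egr1, which need no new protein and whose transcripts are short-lived. Heat shock factors then drive chaperone genes, and microglia, vessel cells and astrocytes release chemokines and cytokines that attract leukocytes. Surgery and anaesthesia also raise circulating glucocorticoid, whose receptor acts directly on genes such as Fkbp5 and Zbtb16 in many cell types.

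A total of 54532 genes were joined by identifier across the tables. Total counts were 17.3 to 18.6 M per library at 4 h and 18.0 to 26.5 M at 1 h, and levels are given as CPM, counts scaled to a common library size. A count of 0 in a library leaves room for 3 counts, which is 0.113 to 0.174 CPM by counting error alone. The share of counts on mitochondrial genes was 5.22% ± 0.36 (SD, n = 3) at 4 h and 6.41% ± 0.166 (SD, n = 3) at 1 h. The lumbar position gene Hoxc10 stood at 37.4, 42.1 and 41.9 CPM at 4 h and at 37.2, 43.6 and 42.4 CPM at 1 h, against 0.592 to 2.28 CPM in the cervical cord, so all 6 libraries carried the marker of their labelled region. Sums of Hox genes matched less closely between the times. The 10 rostral genes (groups 4 to 6) summed to 164 to 167 CPM at 4 h and to 202 to 228 CPM at 1 h. The 19 caudal genes (groups 8 to 13) summed to 566 to 617 CPM and to 656 to 685 CPM. Xist, which marks cells with a second X chromosome, stood at 461 to 557 CPM in all 12 libraries used, Sham and cervical cords among them. The Y-linked genes Uty and Eif2s3y were at 0 in all 12, and Ddx3y and Kdm5d were at 0 in all but library 3 of the 1 h thoracolumbar cords, at 0.0481 and 0.433 CPM. Libraries 1, 2 and 3 are given in that order throughout. At 1 h, library 3 stood apart from libraries 1 and 2: Fos was at 317 and 387 CPM in libraries 1 and 2 and at 15.3 CPM in library 3, below the 24.1 to 47.7 CPM of the cervical cord. Many results are therefore also given without library 3.

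Of 17266 genes tested, 604 (3.5%) were higher and 326 (1.89%) lower at 4 h than at 1 h, at an adjusted p under 0.05 by edgeR's quasi-likelihood test. The median log2 difference over all genes tested was -0.01. Without library 3 of the 1 h cords, 391 (2.22%) of 17642 genes were higher and 168 (0.952%) lower. Leaving out library 1 of the 1 h cords instead gave 261 higher and 94 lower genes, and leaving out library 1 of the 4 h cords gave 369 and 119. Another 2 comparisons stood beside this one. The first took the 4 h Sham cord minus the 1 h cervical cord. It shares no library with the clamped thoracolumbar cords but mixes table, region and procedure. In it 983 (5.31%) of 18516 genes were higher and 972 (5.25%) lower. These Sham and cervical libraries are called unclamped below for short. The cervical cord lay outside the ischemic territory but came from clamped mice, so it is no baseline without clamping. The second subtracted the 1 h difference between thoracolumbar and cervical cord from the 4 h difference between ACC and Sham. An offset shared by all libraries of a table cancels there, but a difference between cord regions does not. Position genes such as Hoxa10 (adjusted p = 1.59e-11 by the same test) therefore passed. The second comparison is called the within-table difference below and shares the clamped libraries with the comparison of times. It called 156 genes (0.843%) higher and 85 (0.459%) lower, and by library totals alone in place of TMM scaling 112 and 123. Without library 3 of the 1 h cords it called 136 (0.717%) of 18978 genes higher and 49 (0.258%) lower. By library totals the unclamped comparison gave 1452 higher and 750 lower. Single unclamped libraries moved these counts: without Sham library 1 or 2 or cervical library 2 or 3, the within-table difference called 82 to 87 genes higher and 32 to 40 lower. The shares over all genes given here are the background for the counts of list members below.

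Genes that respond to glucocorticoid were higher at 4 h than at 1 h almost throughout the list chosen for them. Of 18 such genes tested, 16 were higher and 0 lower, with a median log2 difference of 1.15. The 2 others were Tsc22d3, a glucocorticoid-induced leucine zipper gene, at 0.00 (adjusted p = 0.991), and the metallothionein gene Mt2, at -0.45 (adjusted p = 0.682). Without library 3 of the 1 h cords 15 were higher (median 1.13), and 13 to 15 were higher when any 1 of the 6 libraries was left out, with 13 left without library 1 of the 1 h cords.

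Zbtb16, a zinc finger repressor gene (GRCm38/mm10 chromosome 9, 48654297 to 48836222), was at 112, 91.5 and 103 CPM at 4 h and at 13, 18.2 and 10.2 CPM at 1 h. It was higher at 4 h by 2.89 on the log2 scale (SE 0.181, adjusted p = 6.56e-05), and every 4 h library lay far above every 1 h library. Sham and cervical cords showed similar levels by table: 107, 106 and 91.1 CPM in 4 h Sham and 15.3, 20.4 and 12 CPM in the 1 h cervical cord of the clamped mice. Plin4, which coats lipid droplets, was at 99.4, 70.8 and 101 CPM at 4 h and at 9.44, 16.4 and 12.2 CPM at 1 h, a log2 difference of 2.85 (SE 0.217, adjusted p = 0.000587). Its levels were 93.7 to 138 CPM in 4 h Sham and 13.8 to 22.3 CPM in cervical cord. Fkbp5, a chaperone of the glucocorticoid receptor (chromosome 17, 28399094 to 28517527), was at 99.6, 74.3 and 89.6 CPM at 4 h against 20.4, 22.0 and 21.7 CPM at 1 h, a difference of 2.04 (SE 0.106, adjusted p = 1.81e-06). Sham cord held still more of it, 104 to 150 CPM, and the 4 h ACC cord was lower than its Sham by 0.51 (log2 difference -0.51, adjusted p = 0.0282).

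Cdkn1a, which codes for the cell cycle inhibitor p21, was at 126, 115 and 134 CPM at 4 h and at 45.6, 54.6 and 40.3 CPM at 1 h (log2 difference 1.42, adjusted p = 1.65e-05). The kinase gene Sgk1 was at 700, 556 and 723 CPM against 265, 297 and 350 CPM (1.12, adjusted p = 0.000512). Both groups of libraries were fully separated for each of these genes. Differences were also seen for the arrestin-like gene Arrdc2 (1.10, adjusted p = 4.52e-05), Pdk4, which restrains pyruvate use (1.18, adjusted p = 0.00068), Hif3a (1.53, adjusted p = 0.00135), the transcription factor Klf9 (0.81, adjusted p = 0.000302) and the NF-kB inhibitor Nfkbia (0.72, adjusted p = 0.000836). Calls for 3 further members rested on single libraries. Lcn2 (adjusted p = 0.0182) lost its call without library 3 at 4 h or without any 1 h library (0.068 to 0.146), Ddit4 (0.0472) without any 4 h library or library 1 at 1 h (0.0981 to 0.221), and Errfi1 (0.0218) without library 2 at 4 h or library 1 at 1 h (0.0552 to 0.108).

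In the unclamped cords, 4 h Sham minus 1 h cervical, the same 18 genes gave 16 higher and 0 lower with a median of 1.04. In the within-table difference 0 of 18 were higher and 0 lower, with a median of 0.02 against 0.01 for all genes. By the same edgeR test, without library 3 of the 1 h cords, Sgk1 alone passed there (0.78, adjusted p = 0.0467). Between ACC and Sham at 4 h, 0 of 18 were higher and 3 lower (0.648% of all genes), namely Tsc22d3, Fkbp5 and Sult1a1. The median difference of the glucocorticoid genes between the tables was thus close in clamped cord and in cord that was not clamped or lay outside the ischemic territory.

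**Figure D1:**
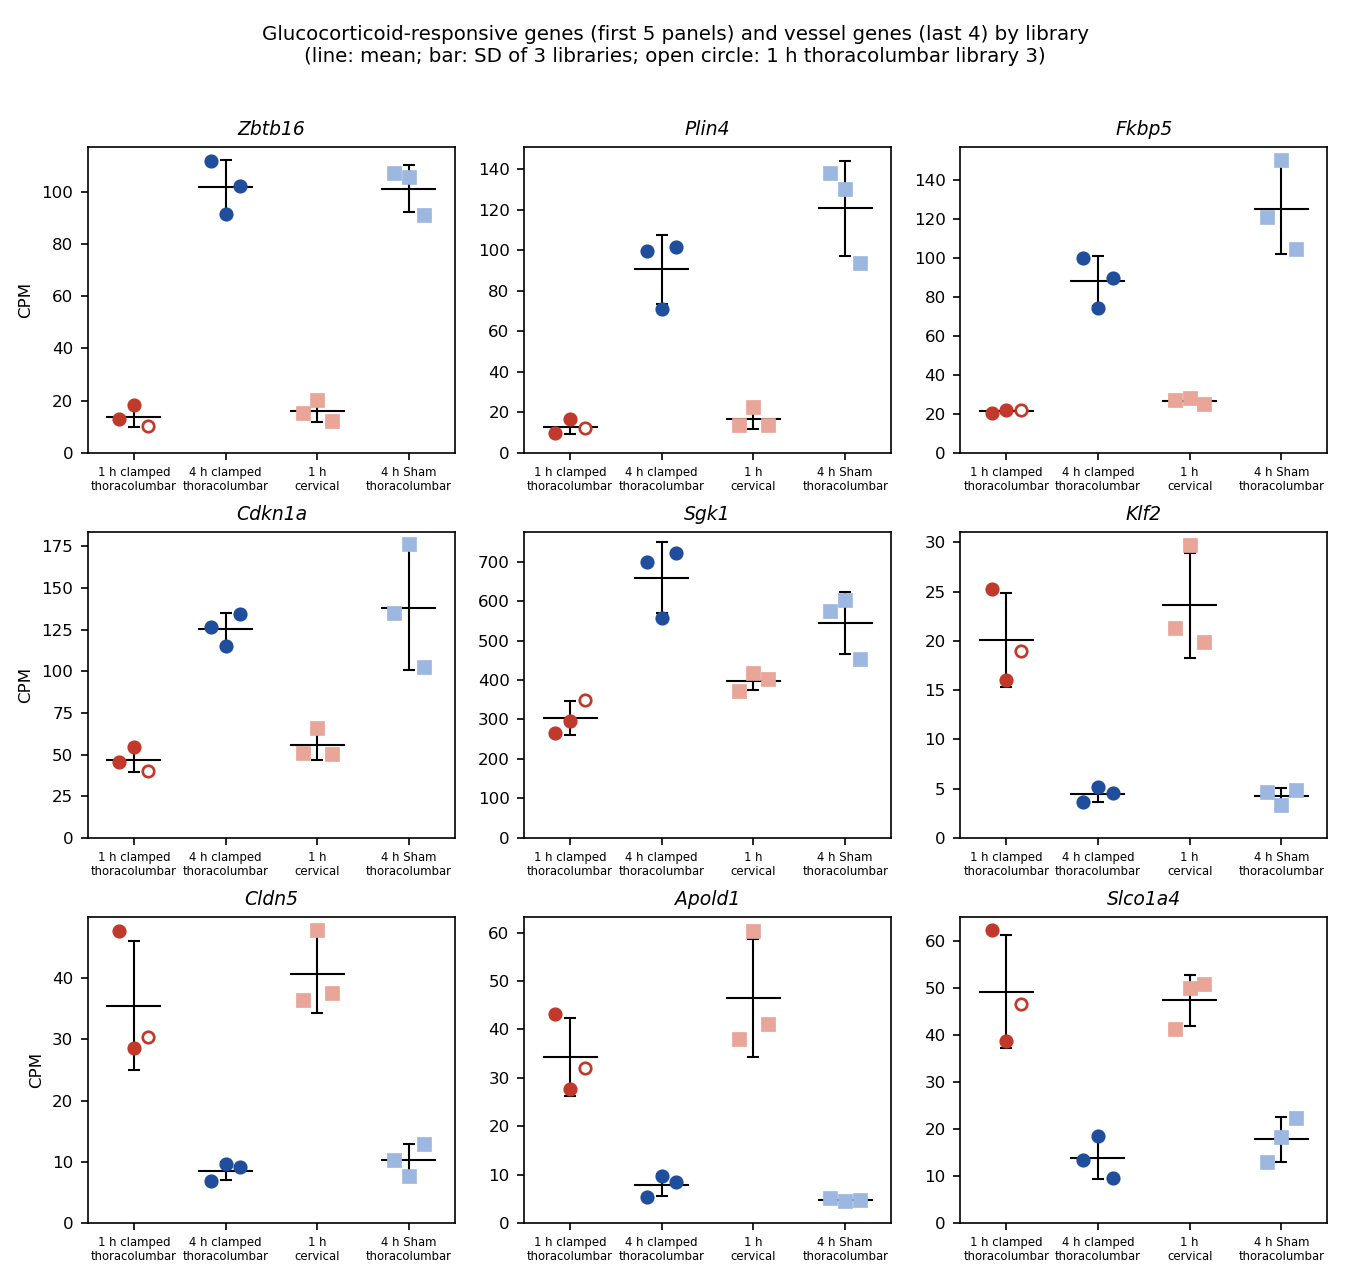
Levels in CPM (linear axes starting at 0) of genes that differed between 4 h and 1 h clamped thoracolumbar cord and between 4 h Sham and 1 h cervical cord alike, with 1 point per library in the 4 groups, a line at each group mean and bars of 1 SD; the open circle is library 3 of the 1 h thoracolumbar cords. Zbtb16, for instance, sits between 91.1 and 112 CPM in all 6 libraries of the 4 h table and between 10.2 and 20.4 CPM in all 6 of the 1 h table.

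Other large differences toward 4 h came with a like difference in unclamped cord. Itgad, an integrin chain of leukocytes, was at 9.57, 7.89 and 9.86 CPM at 4 h against 0.639, 1.33 and 0.625 CPM at 1 h (log2 difference 3.43, adjusted p = 2.45e-05), and differed by 2.80 between 4 h Sham and cervical cord (adjusted p = 9.64e-05). Dmrta1 differed by 2.85 (adjusted p = 2.98e-06) and by 2.19 in the unclamped cords. Ada, the enzyme that breaks down adenosine, differed by 2.45 (adjusted p = 3.63e-05) and by 2.04, and Ch25h, which makes an oxysterol, by 2.63 (adjusted p = 0.00108) and by 2.36. Cox6a2, a heart and muscle form of a respiratory subunit, differed by 2.66 (adjusted p = 0.00437) and by 3.41. In each of these the 4 h and 1 h clamped libraries did not overlap.

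Vessel genes made up much of the strongest differences in the other direction. Klf2, a transcription factor that endothelium makes under laminar flow (chromosome 8, 72319033 to 72321656), was at 3.64, 5.20 and 4.52 CPM at 4 h and at 25.3, 16.0 and 18.9 CPM at 1 h, lower by 2.17 (log2 difference -2.17, SE 0.19, adjusted p = 6.56e-05). Cldn5, the tight junction claudin of the blood-brain barrier (chromosome 16, 18776847 to 18778262), was at 6.87, 9.58 and 9.09 CPM against 47.7, 28.5 and 30.3 CPM (-2.06, adjusted p = 0.000918). Apold1, an endothelial early response gene, was at 5.29, 9.64 and 8.43 CPM against 43.3, 27.6 and 32.1 CPM (-2.14, adjusted p = 0.00135). For all 3 genes each 1 h library lay above each 4 h library. The forkhead gene Foxf1 (-2.67, adjusted p = 0.00119), the endothelial sialomucin Emcn (-1.66, adjusted p = 0.00226), the capillary carbonic anhydrase Car4 (-1.82, adjusted p = 0.00154) and Asb4 (-1.86, adjusted p = 0.00209) were lower too. The transporter Slco1a4 (-1.84, adjusted p = 0.0159) lost its call without library 1 at 4 h (adjusted p = 0.0711), and Klf4 (-1.99, adjusted p = 0.00846) without library 2 or 3 at 4 h (0.0719 to 0.106).

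Of 10 endothelial markers, 4 were lower (Cldn5, Itm2a, Tek and Slco1a4) and 1 was higher (Ly6a), against 1.89% and 3.5% of all genes. The median log2 difference was -0.65. With 1 library left out at a time, 2 to 5 were lower, and 2 without library 1 at 4 h. Tek, the angiopoietin receptor (-1.36, adjusted p = 0.01), lost its call without library 1 of either time (0.0511 to 0.0573), and Ly6a (0.52, adjusted p = 0.0425) without any of 4 libraries (0.0831 to 0.138). The general endothelial genes Pecam1 (-0.33, adjusted p = 0.387) and Cdh5 (-0.30, adjusted p = 0.508) did not pass, and Ly6c1 was at 33.6, 40.6 and 36.1 CPM against 39.3, 28.1 and 36.8 CPM. The summed level of the 10 markers was 173 to 226 CPM at 4 h and 262 to 381 CPM at 1 h. In bulk cord, fewer cells of a type and less RNA per cell cannot be told apart. These levels followed the table in unclamped cord as well: the sum was 186 to 236 CPM in 4 h Sham and 325 to 394 CPM in cervical cord, where 6 of 10 were lower at 4 h. Klf2 stood at 3.37 to 4.83 CPM in Sham and 19.9 to 29.7 CPM in cervical cord. None of the 10 markers passed in the within-table difference by edgeR's test.

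Part of the mitochondrially encoded transcripts were lower at 4 h. Of 13, 5 were lower (mt-Nd2, mt-Nd6, mt-Cytb, mt-Nd4 and mt-Nd5), the median log2 difference was -0.48, and for 11 of 13 all 4 h libraries lay below all 1 h libraries, which held for 12.4% of all genes tested. They code for subunits of the respiratory chain. mt-Nd2, a subunit of respiratory complex I, was at 3366, 3005 and 3414 CPM at 4 h and at 4834, 4404 and 4803 CPM at 1 h (-0.52, adjusted p = 0.00132). The number lower was 2 without library 1 of either time and 4 to 6 without any other library, and without library 2 at 4 h 1 gene, mt-Nd3, was called higher. mt-Cytb, mt-Nd4 and mt-Nd5 lost their calls without library 1 of either time or library 3 of the 1 h cords, at an adjusted p of 0.0508 to 0.187. Between 4 h Sham and cervical cord 11 of 13 were lower, with a median of -0.997, and in the within-table difference mt-Nd2 (0.68, adjusted p = 0.00448) and mt-Nd5 (0.58, adjusted p = 0.00598) were higher. At 1 h the cervical cord had a larger mitochondrial share, 7.99% of counts, than the thoracolumbar cord of the same mice.

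Across all genes, 260 of the 604 genes higher at 4 h in clamped cord (43.05%) were also called higher between 4 h Sham and 1 h cervical cord, and they made up 26.89% of the 967 genes higher there among those tested in both. A further 17 were called in the opposite direction. Of the 326 lower genes, 162 (49.69%) were also lower in unclamped cord, which was 16.93% of the 957 lower there, and 1 was called higher. The sign was the same for 83.61% of the higher and 92.33% of the lower genes. These 2 comparisons share no library, but each crosses from one table to the other.

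**Figure D2:**
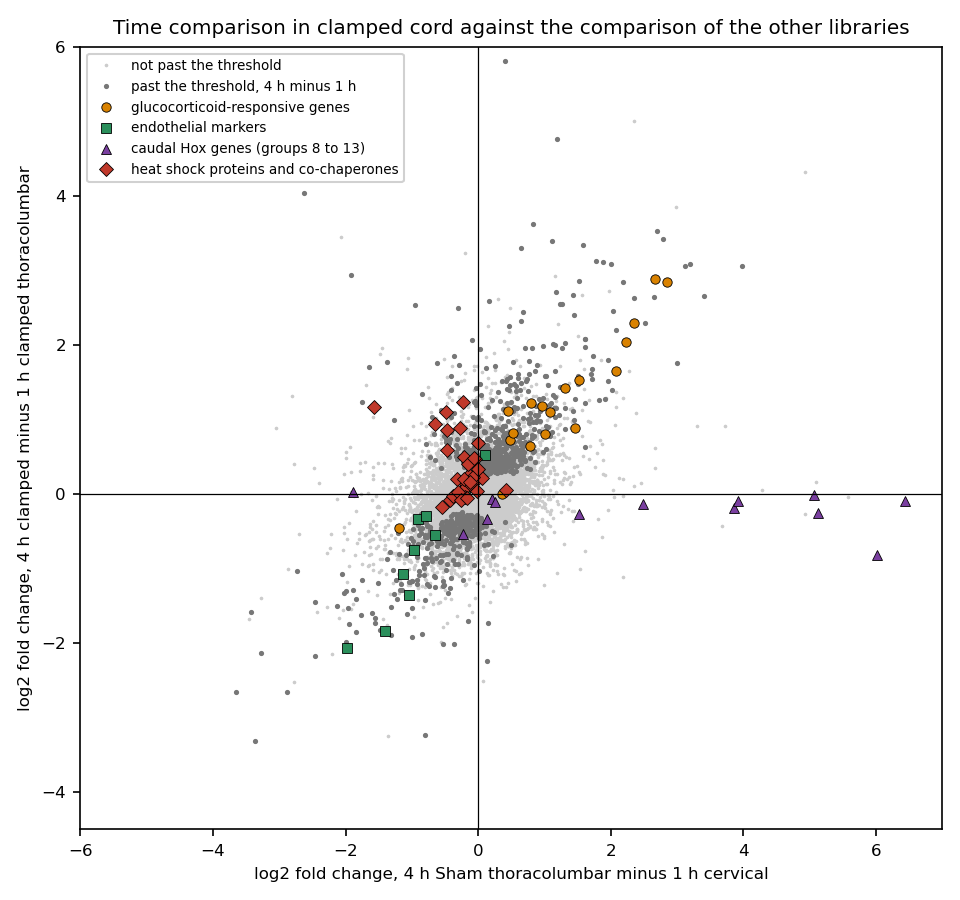
Each of 17260 genes is 1 point, with the log2 difference between 4 h Sham thoracolumbar and 1 h cervical cord on the x axis and the log2 difference between 4 h and 1 h clamped thoracolumbar cord on the y axis; 6 genes fall outside the axes. Marked glucocorticoid genes and endothelial markers lie along the diagonal (Zbtb16 at 2.67 and 2.89, Cldn5 at -1.98 and -2.06), caudal Hox genes lie near 0 on the y axis (Hoxa10 at 3.86 and -0.20), and chaperones lie left of it (Hsph1 at -0.22 and 1.23).

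Immediate early genes of the AP-1 family, 11 in number, summed to 507, 825 and 837 CPM at 4 h and to 910, 1142 and 249 CPM at 1 h, against 168 to 183 CPM in 4 h Sham and 302 to 341 CPM in cervical cord. Library 3 of the 1 h cords lay below the other 5 clamped libraries in this sum. Between ACC and Sham at 4 h, 4 of these 11 genes and 6 of 22 Egr, Nr4a and related early genes were higher and 0 lower (2.28% and 0.648% of all genes). Fos (chromosome 12, 85473890 to 85477273) was at 73.1, 167 and 166 CPM at 4 h and at 317, 387 and 15.3 CPM at 1 h, against 10.7 to 11.8 CPM in 4 h Sham. Its log2 difference of -0.82 (SE 1.19, adjusted p = 0.768) did not pass, nor did -1.38 without library 3 (adjusted p = 0.223). Libraries 1 and 2 of the 1 h cords held more Fos than any 4 h cord and library 3 less than any, so the groups overlapped. Npas4, a neuronal activity factor, had the same shape, at 9.81, 27.3 and 29.3 CPM at 4 h and at 111, 117 and 2.98 CPM at 1 h (-1.79, adjusted p = 0.536; without library 3 -2.36, adjusted p = 0.12).

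Egr1 and the AP-1 gene Jun differed little between 4 h and the first libraries of 1 h. Egr1 was at 160, 313 and 305 CPM against 286, 315 and 35.7 CPM (0.29, adjusted p = 0.90), and Jun was at 165, 285 and 278 CPM against 233, 314 and 81.8 CPM (0.21, adjusted p = 0.888). Atf3, a stress-induced partner of Jun, was at 22.3, 32.3 and 35.6 CPM against 40.7, 35.3 and 5.00 CPM (0.15, adjusted p = 0.946). Without library 3 of the 1 h cords, Egr1, Jun and Atf3 differed by -0.21, -0.18 and -0.34, and none passed. Library 1 of the 4 h cords was the lowest of its group in all 5 genes. Of 11 AP-1 genes, 1 was higher and 0 lower, with a median of 0.22 (0.02 without library 3). That 1 gene, Batf, stood at 0.587, 1.26 and 0.606 CPM against 0.0376, 0.222 and 0 CPM, its 1 h levels were near the limit of 3 counts, and its call (adjusted p = 0.0286) was lost without any of 4 libraries (0.0627 to 0.161).

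A second set of early genes, named after their values were seen, was lower at 4 h once library 3 of the 1 h cords was left out. The orphan receptor gene Nr4a1 was at 26.1, 39.8 and 42.8 CPM at 4 h and at 163, 157 and 24.4 CPM at 1 h. Its difference of -1.66 did not pass over the 6 libraries (adjusted p = 0.362), and without library 3 it was -2.15 (adjusted p = 0.000501). The antiproliferative gene Btg2, at 14.2, 23.1 and 23.0 CPM against 83.2, 94.0 and 15.4 CPM, went from -1.67 (adjusted p = 0.338) to -2.14 (adjusted p = 0.00058). The phosphatase gene Dusp1, at 33.0, 43.6 and 41.5 CPM against 91.3, 95.4 and 30.5 CPM, went from -0.88 (adjusted p = 0.427) to -1.25 (adjusted p = 0.000501). In these 3 genes library 3 of the 1 h cords fell among or below the 4 h libraries, so the call depended on that library. Library 3 was set apart because its early genes were low, so leaving it out raises the 1 h level of early genes by construction. The adjusted p values without library 3 are therefore no test of a fall in early genes by 4 h. Of 22 Egr, Nr4a and related factors, 1 was higher and 4 lower over all 6 libraries (Klf2, Klf4, Srf and Nr4a2; median 0.16; 2 lower without any other single library) and 1 was higher and 7 lower without library 3 (median -0.19). Unclamped cord also differed, with 6 of 22 lower in 4 h Sham than in cervical cord (5.25% of all genes). Nr4a1 gave a within-table difference of 0.43 (adjusted p = 0.903) or, without library 3, of -0.05 (adjusted p = 0.972).

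**Figure D3:**
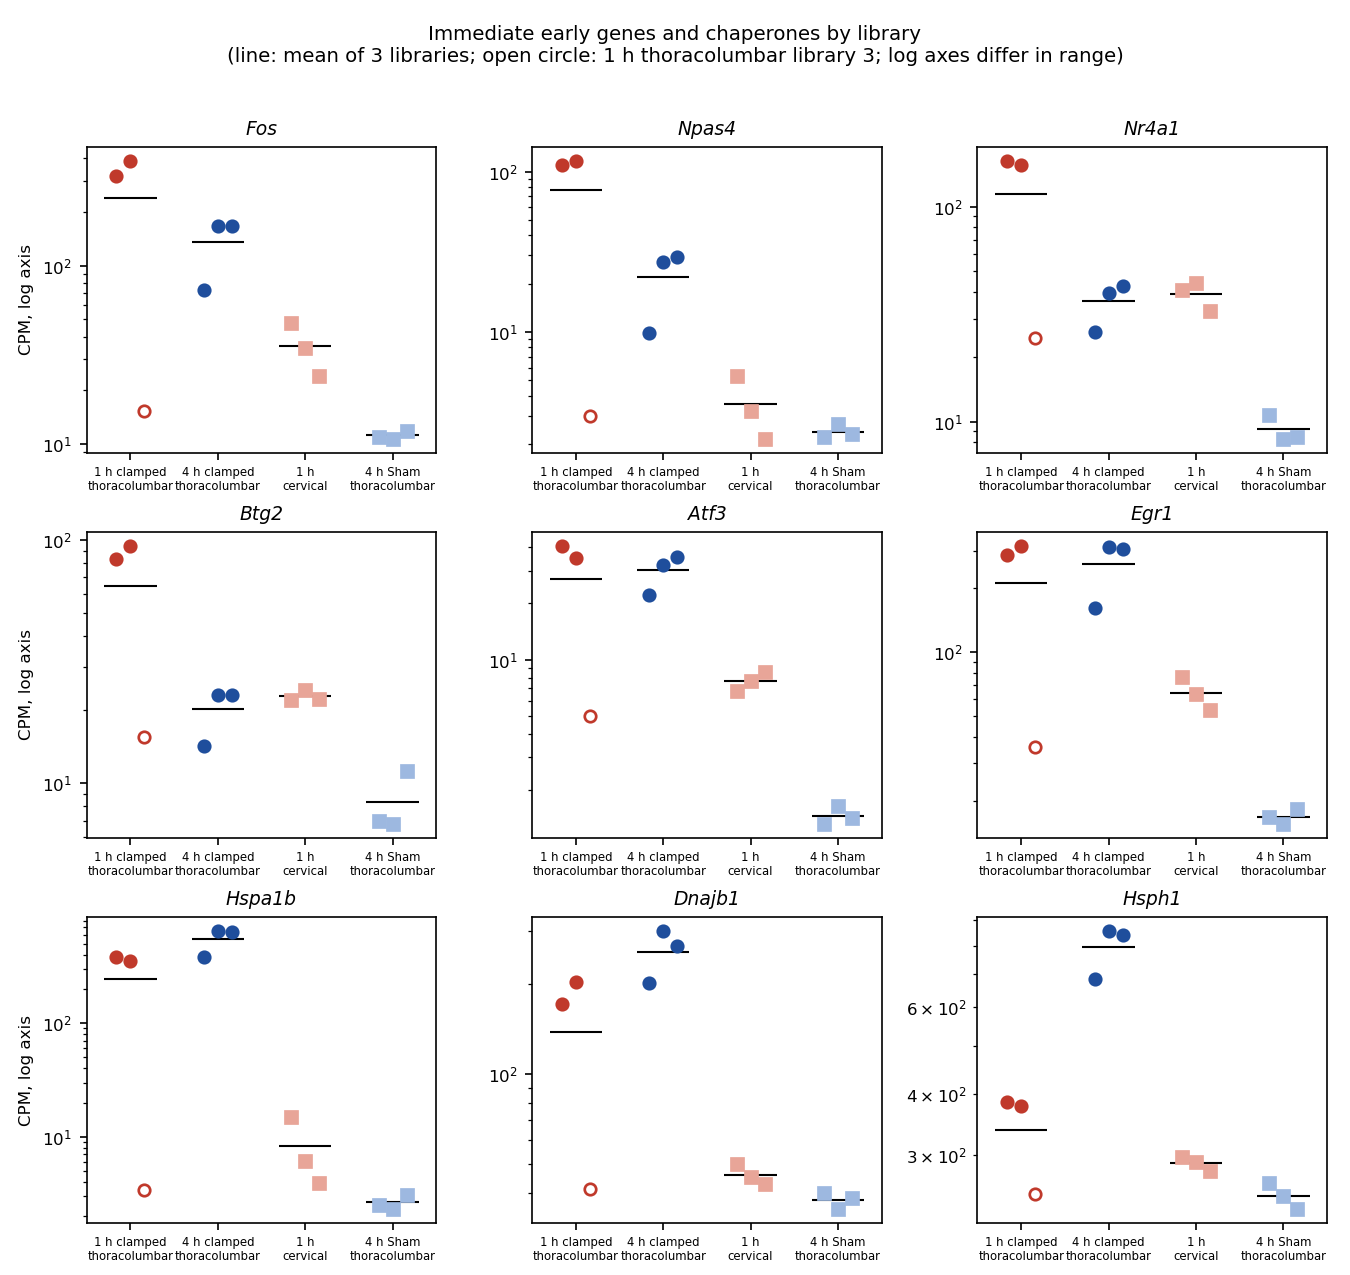
Levels in CPM on log axes of early response and chaperone genes, with 1 point per library in the 4 groups, a line at each group mean, and an open circle for library 3 of the 1 h thoracolumbar cords. Libraries 1 and 2 of the 1 h thoracolumbar cords sit high (Fos 317 and 387 CPM) while the open circle sits near the Sham and cervical cords (Fos 15.3 CPM).

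Chaperone genes, which heat shock factor drives when unfolded protein builds up, were higher at 4 h in part of the family. Of 32 tested, 6 were higher (Dnajb5, Hspd1, Hsph1, Bag3, Hspb1 and Hspb8) and 0 lower, with a median log2 difference of 0.21. For 13 of 32 all 4 h libraries lay above all 1 h libraries, against 13.2% of all genes tested. The number called was 5 without library 3 of the 1 h cords and 3 to 6 without any 1 library, with 3 left without library 2 or 3 at 4 h or library 2 at 1 h. In the within-table difference 5 of 32 were higher (median 0.36), and between ACC and Sham at 4 h 18 of 32 were (2.28% of all genes).

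The inducible Hsp70 genes Hspa1a and Hspa1b, which refold damaged protein, were already high in libraries 1 and 2 at 1 h. Hspa1b was at 380, 646 and 635 CPM at 4 h, at 384, 353 and 3.37 CPM at 1 h and at 2.31 to 3.10 CPM in Sham. Hspa1a was at 223, 426 and 421 CPM against 278, 278 and 4.62 CPM. Library 3 of the 1 h cords was thus at the level of unclamped cord, and neither gene passed (Hspa1b 1.17, adjusted p = 0.728, and 0.58, adjusted p = 0.25, without library 3; Hspa1a 0.93, adjusted p = 0.767, and 0.36, adjusted p = 0.622). The co-chaperone gene Dnajb1 was at 201, 299 and 266 CPM against 171, 202 and 41.4 CPM (0.89, adjusted p = 0.538; without library 3 0.45, adjusted p = 0.17). Reads of Hspa1a and Hspa1b, near-identical neighbours, could have been split between them in counting.

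Hsph1, the Hsp110 nucleotide exchange factor of Hsp70 (chromosome 5, 149614287 to 149636376), did separate the times. It was at 684, 855 and 841 CPM at 4 h and at 386, 378 and 250 CPM at 1 h (1.23, adjusted p = 0.00762; within-table difference 1.45, adjusted p = 0.00469), with library 3 of the 1 h cords again the lowest. Its call was lost without library 2 or 3 at 4 h (0.083 to 0.107). Dnajb5 was at 62.3, 68.6 and 66.0 CPM against 41.4, 45.1 and 36.4 CPM (0.68, adjusted p = 0.00119; within-table difference 0.68, adjusted p = 0.00623). The mitochondrial chaperonin gene Hspd1 was at 264, 294 and 308 CPM against 226, 205 and 194 CPM (0.47, adjusted p = 0.00635; within-table difference 0.51, adjusted p = 0.011). For Dnajb5 and Hspd1 no library left out removed the call between 4 h and 1 h. The small heat shock gene Hspb1 (1.10, adjusted p = 0.0289) and Bag3, an Hsp70 exchange factor of selective autophagy (0.86, adjusted p = 0.0159), lost their calls without library 2 or 3 at 4 h or library 2 at 1 h (0.0542 to 0.133), and Hspb8 (adjusted p = 0.0353) without any of the 1 h libraries (0.0589 to 0.152).

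The promoters of a chaperone pair already high at 1 h and of one that was higher at 4 h are shown to place the heat shock element, the site that heat shock factor binds as inverted GAA units. The sequences are from RefSeq on GRCm38.p6, cover the 250 bases before the transcript start, run 5′ to 3′ along the gene, and carry in capitals the letters that match GAANNTTC or TTCNNGAA, searched on both strands, with overlapping matches merged. Hspa1a lies on the minus strand at chr17:34972157-34972406, Hspa1b on the minus strand at chr17:34959239-34959488 and Hspd1 on the minus strand at chr1:55087933-55088182.
Hspa1a: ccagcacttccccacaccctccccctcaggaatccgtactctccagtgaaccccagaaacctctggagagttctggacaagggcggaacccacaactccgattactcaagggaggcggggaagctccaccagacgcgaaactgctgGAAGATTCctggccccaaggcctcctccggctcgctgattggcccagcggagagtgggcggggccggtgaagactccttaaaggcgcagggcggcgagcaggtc
Hspa1b: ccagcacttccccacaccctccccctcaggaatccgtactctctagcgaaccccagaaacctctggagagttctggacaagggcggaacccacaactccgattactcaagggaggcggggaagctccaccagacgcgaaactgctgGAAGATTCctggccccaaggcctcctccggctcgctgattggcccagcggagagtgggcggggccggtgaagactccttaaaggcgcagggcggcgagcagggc
Hspd1: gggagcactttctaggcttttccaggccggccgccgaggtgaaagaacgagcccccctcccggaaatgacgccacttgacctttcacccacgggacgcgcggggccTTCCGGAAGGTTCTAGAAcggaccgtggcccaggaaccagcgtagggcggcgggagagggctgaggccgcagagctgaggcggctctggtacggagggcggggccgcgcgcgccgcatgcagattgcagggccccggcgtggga

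The windows of Hspa1a and Hspa1b differed at 3 of 250 positions and held 1 match each, starting 104 bases before the start. A second annotated Hspd1 start had no match in its 250 bases. The Hspd1 window shown held 3 overlapping matches that together span 18 bases, and 2 matches to the longer form GAANNTTCNNGAA or its reverse complement. The 2-unit letters occurred in 12.8% of 32851 promoters and in 11 of the 25 list genes with a promoter in the table, Hsph1 among them. The 3-unit letters occurred in 0.466% of promoters and in 3 of those 25 (Dnajb6, Hspd1 and Hspe1). All promoters were counted singly, whereas a list gene counted if any of its promoters matched, so the shares are not like for like. A match is a description of letters and not a measured binding site.

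Genes that were higher at 4 h than at 1 h and also higher in the within-table difference numbered 80, or 13.25% of the 604, and 10 were lower in both. Both measures share the clamped libraries, so the within-table values are given beside the others and not as separate support. Klf10, a TGF-beta-induced repressor gene (chromosome 15, 38291463 to 38300706), was at 24.1, 27.7 and 26.2 CPM at 4 h and at 10.6, 12.2 and 10.5 CPM at 1 h (1.23, SE 0.11, adjusted p = 6.56e-05; within-table difference 1.3, adjusted p = 0.000163). Library 3 of the 1 h cords did not stand apart from libraries 1 and 2 for it, and 4 h Sham and cervical cord differed by -0.07 (adjusted p = 0.787). Btg3, an antiproliferative gene named after its values were seen, was at 20.9, 19.2 and 20.2 CPM against 8.01, 8.27 and 10.1 CPM (1.19, adjusted p = 0.000205; within-table difference 1.23, adjusted p = 0.00141).

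Plau, the urokinase plasminogen activator (chromosome 14, 20836660 to 20843385), was at 8.46, 10.2 and 9.64 CPM at 4 h and at 3.46, 3.39 and 3.27 CPM at 1 h (1.48, adjusted p = 0.000332; within-table difference 1.80, adjusted p = 0.00381). Itga5, the fibronectin receptor chain, was at 5.82, 9.47 and 9.15 CPM against 2.97, 3.33 and 2.98 CPM (1.40, adjusted p = 0.00242; within-table difference 1.82, adjusted p = 0.00343). In both genes the 1 h libraries were tightly grouped and lay below every 4 h library. Plat, the tissue-type activator, was higher as well (0.62, adjusted p = 0.00313), with a within-table adjusted p of 0.156. Of 20 genes tested for endothelial adhesion, coagulation and plasminogen, 3 were higher (Plau, Plat and Adamts9) and 1 lower (Apold1), with a median of 0.27, and Adamts9 (adjusted p = 0.0487) lost its call without any of 4 libraries (0.10 to 0.198). Plaur, the urokinase receptor gene, named after its values were seen, did not differ at adjusted p under 0.05 between the times (4.35, 6.57 and 8.87 against 4.93, 5.27 and 5.34 CPM; 0.35, adjusted p = 0.423), whereas its within-table difference was 2.83 (adjusted p = 9.74e-05): it stood at 1.16 to 1.68 CPM in 4 h Sham and at 5.94 to 9.57 CPM in cervical cord.

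Several growth factor and feedback genes were higher by both measures. Csf1, the growth factor of microglia (chromosome 3, 107741048 to 107760469), was at 86.6, 93.1 and 102 CPM at 4 h and at 46.9, 53.9 and 57.5 CPM at 1 h (0.83, adjusted p = 0.000367; within-table difference 0.73, adjusted p = 0.00203). The growth factor gene Hbegf was at 25.1, 28.3 and 31.2 CPM against 18.8, 21.1 and 19.8 CPM (0.51, adjusted p = 0.0167; within-table difference 0.84, adjusted p = 0.00354), and its call was lost without library 1 or 3 of the 1 h cords (0.0553 to 0.0906). All 3 cords at 4 h lay above all 3 at 1 h for both. Of 20 MAP kinase feedback genes 5 were higher (Dusp14, Spry4, Errfi1, Gadd45a and Trib1) and 0 lower (3.5% and 1.89% of all genes), with a median of 0.35. From 2 to 5 were higher without 1 library, with 2 left without library 2 at 4 h or library 1 at 1 h. Without library 3 of the 1 h cords 4 were higher (Trib1, Spry4, Dusp14 and Errfi1) and 2 lower (Dusp1 and Sik1), with a median of 0.20. The receptor tyrosine kinase inhibitor Spry4, at 29.0, 29.4 and 29.3 CPM against 18.2, 19.5 and 12 CPM (0.82, adjusted p = 0.0088; within-table difference 0.92, adjusted p = 0.0187), and the phosphatase Dusp14 (0.73, adjusted p = 0.00682; within-table difference 1.05, adjusted p = 0.0124) kept their calls between 4 h and 1 h whichever library was left out. Gadd45a (adjusted p = 0.0346) and Trib1 (adjusted p = 0.0414) lost theirs without any of 4 and any of 3 libraries (0.0634 to 0.178).

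Other genes higher by both measures were Il12rb1 (1.56, adjusted p = 0.000313), the transglutaminase gene Tgm2 (1.45, adjusted p = 0.000693), Sh3bp2 (1.39, adjusted p = 0.000365) and Morc4 (1.51, adjusted p = 0.000685). These genes were higher at 4 h than at 1 h whichever library was left out. Their within-table calls (adjusted p = 0.0237 to 0.044) were lost without any of 11, 11, 5 and 6 of the 12 libraries, and those of Il12rb1 and Tgm2 also with the 1 h mouse as a block (0.0667 to 0.069).

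Fewer genes were lower by both measures. The alpha-2A adrenergic receptor gene Adra2a was at 42.5, 37.0 and 37.5 CPM at 4 h and at 62.1, 60.4 and 65.1 CPM at 1 h (-0.68, adjusted p = 0.00068; within-table difference -0.52, adjusted p = 0.0174). Ccng2, an atypical cyclin of cell cycle arrest, was at 18.5, 13.9 and 15.7 CPM against 24.3, 27.0 and 25.9 CPM (-0.69, adjusted p = 0.00522; within-table difference -0.78, adjusted p = 0.00904). Sgsm3 was at 38.1, 38.0 and 35.8 CPM against 53.9, 49.6 and 51.8 CPM (-0.48, adjusted p = 0.00496; within-table difference -0.48, adjusted p = 0.0165). In each of the 3 genes the groups were apart and library 3 of the 1 h cords lay with the others. The within-table calls of Adra2a (lost without Sham library 1 or cervical library 3, 0.0612 to 0.0638) and Sgsm3 (lost without Sham library 2, 0.052) each rested on single unclamped libraries. Gmpr, Armc2, Pcdh8, Lmo3, C1qtnf4 and Hoxb8 were lower as well, by 0.34 to 0.68 (log2 differences -0.68 to -0.34, adjusted p = 0.0115 to 0.0478). All of these but Gmpr lost the call between 4 h and 1 h without any of 3 to 5 of the 6 libraries.

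**Figure D4:**
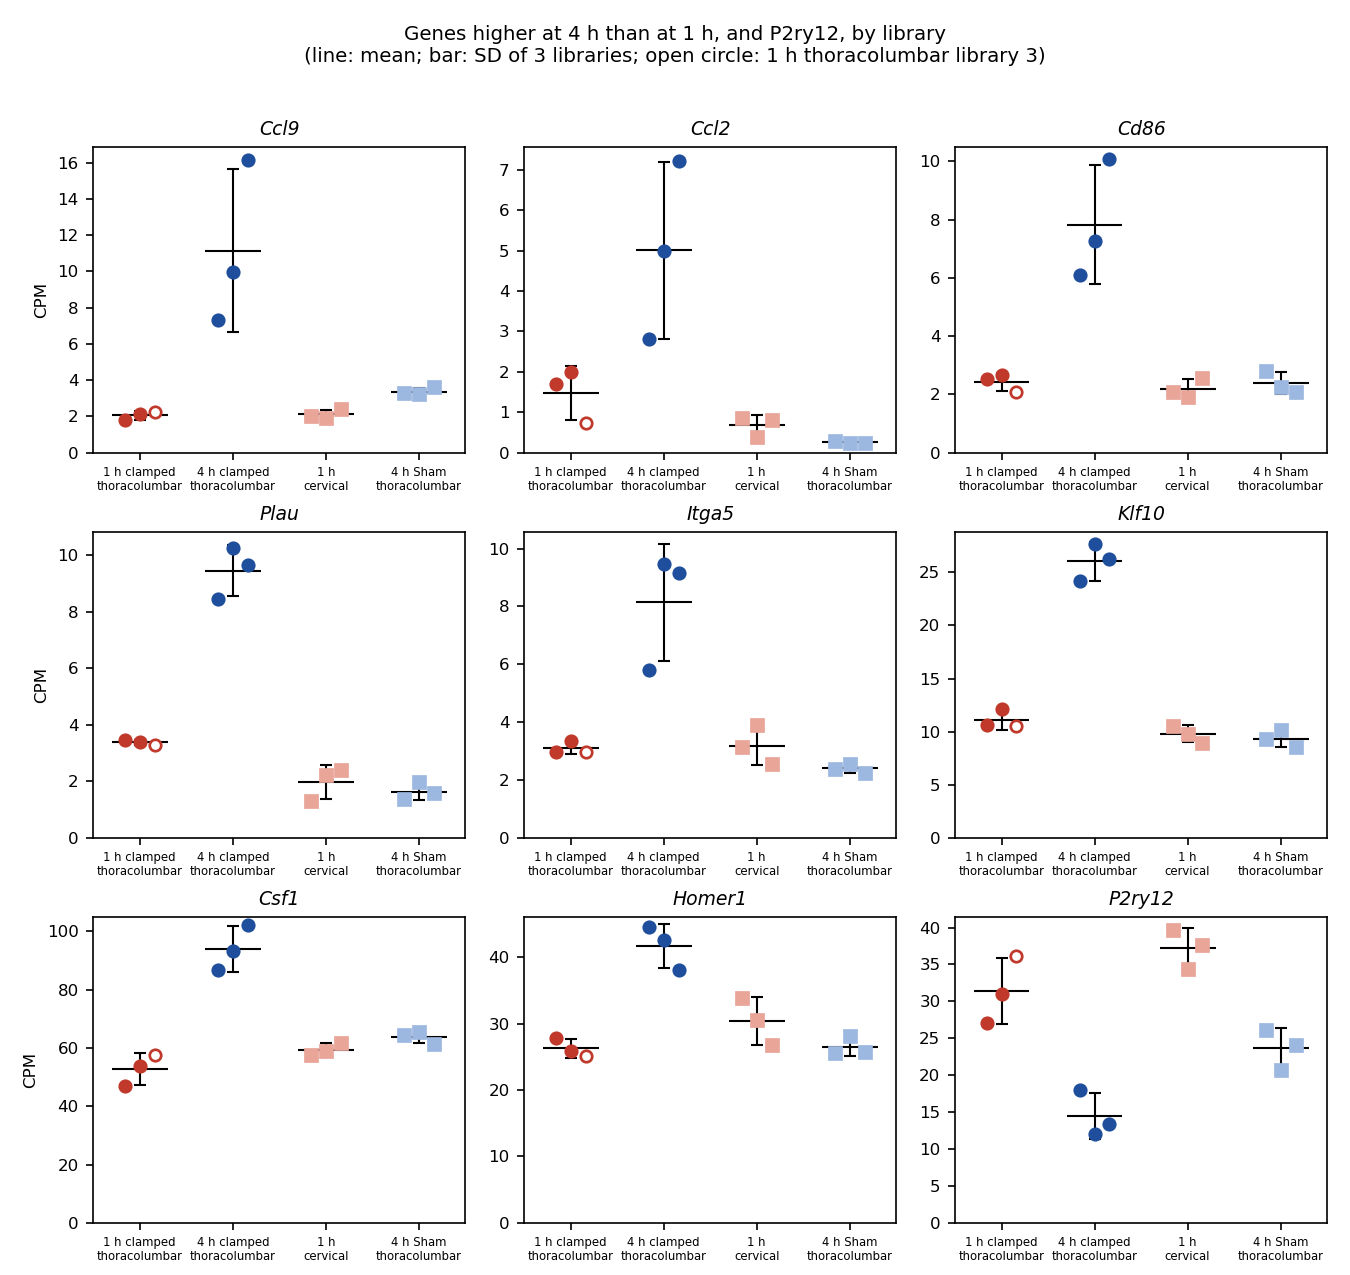
Levels in CPM (linear axes starting at 0) of 8 genes higher at 4 h both against 1 h and in the within-table difference, and of P2ry12, which was lower against 1 h, with 1 point per library in the 4 groups, a line at each group mean and bars of 1 SD; the open circle is library 3 of the 1 h thoracolumbar cords. In each panel the 4 h clamped cords stand apart from the other 3 groups, as for Klf10 at 24.1 to 27.7 CPM against 10.5 to 12.2 CPM in 1 h thoracolumbar cord.

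Some of the chemokine genes, whose products draw leukocytes into tissue, were higher at 4 h. Ccl9 (chromosome 11, 83572919 to 83578636), a ligand of Ccr1, was at 7.34, 9.97 and 16.1 CPM at 4 h and at 1.81, 2.11 and 2.26 CPM at 1 h (2.44, adjusted p = 0.000587; within-table difference 1.77, adjusted p = 0.0126). Ccl2, the main monocyte chemokine, was at 2.82, 4.98 and 7.22 CPM against 1.69, 2.00 and 0.721 CPM (1.77, adjusted p = 0.0285; within-table difference 3.14, adjusted p = 0.0182). The groups were apart for both, and the Ccl2 call was lost without library 2 or 3 at 4 h or library 1 or 3 at 1 h (0.0544 to 0.103). In the within-table difference Ccl9 lost its call without cervical library 3 (adjusted p = 0.0594) and Ccl2 without any Sham library or cervical library 3 (0.0512 to 0.0803).

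Ccl3 and Ccl4, chemokines made largely by microglia, were nearly absent from library 3 of the 1 h cords. Ccl3 was at 14.3, 21.4 and 28.1 CPM at 4 h and at 6.39, 4.66 and 0 CPM at 1 h. It did not pass over 6 libraries (2.50, adjusted p = 0.282) and passed without library 3 (1.92, adjusted p = 0.0103). Ccl4 was at 8.52, 18.0 and 22.4 CPM against 8.24, 6.49 and 0.0481 CPM, and passed neither with library 3 (1.71, adjusted p = 0.472) nor without it (1.14, adjusted p = 0.206). All 4 h libraries lay above all 1 h libraries for both genes, although library 1 of each time came within 1 CPM of the other for Ccl4.

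Of 19 CC chemokine genes 12 were tested, and 4 were higher (Ccl9, Ccl12, Ccl2 and Ccl6) and 0 lower (3.5% and 1.89% of all genes), with a median of 0.90. The number was 1 to 3 without 1 library, lowest without library 1 of the 1 h cords, and 2 (Ccl9 and Ccl3) without library 3. Ccl12 (adjusted p = 0.0223) lost its call without any 1 h library (0.0626 to 0.118) and Ccl6 (adjusted p = 0.0297) without any of 4 libraries (0.0579 to 0.146). Of 15 CXC, CX3C and XC chemokine genes 8 were tested, and 1 was higher (Cxcl1) and 0 lower, with a median of 0.03. Their summed level was 257 to 261 CPM at 4 h and 283 to 306 CPM at 1 h, and without library 3 of the 1 h cords 0 were higher and 1 lower (Cxcl12) of 9. Cxcl1, a neutrophil chemokine, was at 1.23, 4.66 and 3.03 CPM against 0.752, 0.555 and 0.24 CPM (2.49, adjusted p = 0.0167; 0.0539 to 0.0631 without library 2 or 3 of the 1 h cords). Among 10 receptors tested 1 was higher, Ccr1, at 2.29, 4.49 and 4.41 CPM against 0.564, 0.833 and 0.529 CPM (2.55, adjusted p = 0.00135; within-table difference 1.29, adjusted p = 0.363). Cd86, a costimulatory molecule of microglia and macrophages, was at 6.11, 7.28 and 10.1 CPM against 2.52, 2.66 and 2.07 CPM (1.69, adjusted p = 0.00107; within-table difference 1.58, adjusted p = 0.0161), and its within-table call was lost without Sham library 2 or cervical library 3 (0.0527 to 0.0764).

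Cytokine genes that were higher included several receptors. Of 22 cytokine and receptor genes tested 7 were higher (Csf1, Il6ra, Il1rn, Osmr, Il1r1, Lifr and Tnfrsf12a) and 0 lower (3.5% and 1.89% of all genes), with a median of 0.29. From 5 to 7 were higher without 1 library, with 5 left without library 1 of the 1 h cords. Osmr, the oncostatin M receptor of astrocytes and vessels, was at 12.2, 18.1 and 16.6 CPM at 4 h and at 5.11, 4.22 and 7.41 CPM at 1 h (1.48, adjusted p = 0.00194). The interleukin-1 receptor gene Il1r1 was at 8.64, 14.6 and 6.83 CPM against 3.27, 1.67 and 2.65 CPM (1.96, adjusted p = 0.00536), and Il6ra was at 14.0, 12.3 and 11.9 CPM against 5.68, 5.61 and 7.07 CPM (1.06, adjusted p = 0.00157). These 3 receptors were higher in 4 h Sham than in cervical cord too, by 0.65, 1.27 and 0.90. Il1rn, the receptor antagonist, stood at 1.06, 3.29 and 2.42 CPM at 4 h and at 0.0752, 0.167 and 0 CPM at 1 h, where 3 counts or fewer lay behind each value. Tnfrsf12a, the receptor of TWEAK, was at 25.8, 31.0 and 29.9 CPM against 19.9, 21.0 and 13.9 CPM (0.66, adjusted p = 0.0212; 0.0515 without library 1 of the 1 h cords), with a within-table difference of 1.45 (adjusted p = 0.00343). Lifr (0.35, adjusted p = 0.0142) lost its call without library 1 at 4 h or library 1 or 2 at 1 h (0.0585 to 0.0796).

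Genes of reactive astrocytes, the glial response to injury, gave 7 higher and 0 lower of 20, with a median of 0.62. For 12 of 20 the 4 h libraries lay above all 1 h libraries, against 13.2% of all genes tested. Those called were Fgf2, Osmr, Stat3, Tnc, Lcn2, Hspb1 and Emp1, and 4 to 10 were called when a library was left out, fewest without library 3 at 4 h or library 2 at 1 h and most without library 1 at 4 h. The transcription factor gene Stat3 differed by 0.50 (adjusted p = 0.00238; within-table difference 0.40, adjusted p = 0.0376), but its within-table call was lost without any of 9 of the 12 libraries (0.0518 to 0.126) and with the 1 h mouse as a block (0.053). The matrix glycoprotein gene Tnc was at 16.2, 14.8 and 18.4 CPM at 4 h and at 6.21, 9.93 and 7.26 CPM at 1 h (1.09, adjusted p = 0.00301). Fgf2 was at 28.4, 25.4 and 30.3 CPM against 15.8, 14.4 and 17.7 CPM (0.81, adjusted p = 0.0014), and it was at 23.5 to 27.3 CPM in Sham, so its level followed the table in unclamped cord as well. Emp1 (0.73, adjusted p = 0.0416) lost its call without library 2 or 3 at 4 h or library 1 or 2 at 1 h (0.0804 to 0.181). The 10 astrocyte identity markers gave 0 higher and 0 lower by edgeR's test, with sums of 5622 to 6240 CPM at 4 h and 5607 to 5918 CPM at 1 h.

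Neuronal genes that follow electrical activity with a delay gave 4 higher and 0 lower of 22, with a median of 0.12, and 2 without library 1 of the 1 h cords. Nptx2, a pentraxin that gathers AMPA receptors, was at 45.4, 39.8 and 32.6 CPM at 4 h and at 12.4, 16.4 and 9.86 CPM at 1 h (1.61, adjusted p = 0.00068; within-table difference 0.85, adjusted p = 0.252). Homer1, a postsynaptic scaffold gene, was at 44.5, 42.6 and 38.1 CPM against 27.9, 25.8 and 25.1 CPM (0.66, adjusted p = 0.00146; within-table difference 0.86, adjusted p = 0.00203). Both groups were fully apart for both genes and library 3 of the 1 h cords lay close to libraries 1 and 2. Ptgs2 (2.19, adjusted p = 0.0194), the prostaglandin synthase, lost its call without library 2 or 3 at 4 h or library 1 at 1 h (0.0545 to 0.127), and Lingo3 (0.48, adjusted p = 0.0133) without library 1 or 2 at 1 h (0.0536 to 0.065). Arc, a direct activity target named after its values were seen, was at 81.0, 137 and 136 CPM against 99.3, 143 and 44.2 CPM and did not pass (0.30, adjusted p = 0.803).

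Part of the homeostatic microglia markers were lower at 4 h. Of 12, 5 were lower (P2ry12, Tmem119, P2ry13, Selplg and Sall1) and 0 higher (1.89% and 3.5% of all genes), with a median log2 difference of -0.55. Only 1 remained lower without library 2 or without library 3 of the 1 h cords. P2ry12, the ADP receptor of resting microglia (chromosome 3, 59216272 to 59262871), was at 18.0, 12.1 and 13.3 CPM at 4 h and at 27.1, 31.0 and 36.1 CPM at 1 h (-1.12, adjusted p = 0.0014), and kept its call without any 1 library. Tmem119 was at 15.3, 8.60 and 11.3 CPM against 18.8, 22.6 and 21.8 CPM (-0.85, adjusted p = 0.0167; 0.0541 to 0.0629 without library 2 or 3 of the 1 h cords). P2ry13, Selplg and Sall1, at an adjusted p of 0.0235 to 0.0375, lost their calls without library 2 or 3 of the 1 h cords among others (0.0509 to 0.122). Csf1r, a more general microglia and macrophage gene, did not pass, at 94.5, 83.6 and 97.7 CPM against 85.3, 105 and 105 CPM. The summed level of the 12 markers was 277 to 354 CPM at 4 h and 366 to 446 CPM at 1 h. In unclamped cord it was 349 to 388 CPM in 4 h Sham and 433 to 468 CPM in cervical cord, where 2 of 12 were lower at 4 h (P2ry12 and Sall1). In the within-table difference 0 of 12 were called by edgeR's test, and between ACC and Sham at 4 h 4 were lower.

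Among 15 complement genes tested 4 were higher (C5ar1, C3ar1, C1qb and Itgax), against 3.5% of all genes, with a median of 0.14. From 1 to 4 were higher without 1 library, with 1 left without library 1 of the 1 h cords. C5ar1, the anaphylatoxin receptor of myeloid cells, was at 7.23, 9.20 and 11.9 CPM at 4 h and at 1.09, 1.89 and 0.337 CPM at 1 h (3.12, adjusted p = 0.00332), and at 2.73 to 3.27 CPM in Sham. The within-table difference of C5ar1, 1.24, did not pass by edgeR's test (adjusted p = 0.472). C3ar1 was at 10.04, 14.8 and 15.8 CPM against 5.08, 7.33 and 3.80 CPM (1.33, adjusted p = 0.00813; 0.0587 without library 1 of the 1 h cords). The lowest 4 h library exceeded the highest 1 h library for both receptors. C1qb (adjusted p = 0.0274) lost its call without any of 4 libraries (0.0536 to 0.132) and Itgax (adjusted p = 0.0306) without any of the 6 (0.0582 to 0.137).

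Blood cell markers varied between libraries. The 12 neutrophil markers summed to 89.3, 109 and 28.9 CPM at 4 h and to 52.7, 66.5 and 50.1 CPM at 1 h. The 8 red blood cell markers summed to 314, 533 and 140 CPM against 230, 292 and 187 CPM. Library 3 of the 4 h cords was lowest in both sums. Of 10 neutrophil markers tested 0 were higher and 1 lower (median 0.53), whereas without library 3 at 4 h 8 of 11 were higher and 1 lower (median 1.01). Ngp, a granule protein gene of neutrophils, was at 21.8, 25.7 and 3.80 CPM against 9.74, 11.1 and 7.79 CPM, and S100a9 at 20.5, 25.9 and 7.60 CPM against 11.2, 15.3 and 10.6 CPM. The neutrophil sums were 65.4 to 88.9 CPM in 4 h Sham cord and 27.6 to 115 CPM in cervical cord. The part of these markers in the leukocyte genes above, such as Itgad, C5ar1 and Ccr1, was not tested; those 3 genes stood as high in library 3 of the 4 h cords as in library 2 or higher, apart from Ccr1 at 4.41 against 4.49 CPM.

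Stress pathways outside the chaperones moved in few members. Of 22 integrated stress response genes 6 were higher and 0 lower (median 0.22), but 1 to 5 without 1 library, with 1 left without library 1 of either time. Slc7a5, an amino acid carrier (adjusted p = 0.0112), and Mthfd2 (adjusted p = 0.0127) lost their calls without library 1 of either time (0.054 to 0.0731). Their within-table differences, -0.01 (adjusted p = 0.989) and -0.17 (adjusted p = 0.706), did not pass by edgeR's test. Of 18 NRF2 targets and metallothioneins 3 were higher (Srxn1, Txnrd1 and Hmox1; median 0.10). Srxn1, which repairs oxidised peroxiredoxin, was at 159, 157 and 161 CPM at 4 h and at 109, 114 and 107 CPM at 1 h (0.53, adjusted p = 0.000776; within-table difference 0.36, adjusted p = 0.0405, lost without any of 10 of the 12 libraries at 0.0569 to 0.133, and at 0.0664 with the 1 h mouse as a block). The heme oxygenase gene Hmox1 was at 26.9, 30.0 and 31.3 CPM against 13.7, 16.0 and 7.07 CPM (1.26, adjusted p = 0.0321); the call was lost without any 4 h library or library 1 at 1 h (0.0709 to 0.154) and the difference was 0.99 (adjusted p = 0.00258) without library 3 at 1 h. The within-table difference of Hmox1, 1.05, did not pass by edgeR's test (adjusted p = 0.152). With the 1 h mouse as a block it was 1.11 and passed (adjusted p = 0.0414). Txnrd1 (adjusted p = 0.0261) lost its call without any of 4 libraries (0.0683 to 0.121). By the same edgeR test 0 of 25 hypoxia-inducible genes (median 0.01) and 0 of 32 proteasome subunits (median 0.00) passed.

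Several other groups held 1 to 3 calls, where 3.5% of all genes tested were called higher. Of 17 NF-kB genes 3 were higher (Nfkbia, Bcl3 and Relb; median 0.22), of 19 p53 targets 3 (Cdkn1a, Pmaip1 and Sesn2; median 0.06), of 20 endoplasmic reticulum chaperones 1 (Herpud1; median 0.06) and of 17 interferon-stimulated genes 1 (Ifit3; median 0.27). Apart from Nfkbia and Cdkn1a, each of these calls, at an adjusted p of 0.0172 to 0.0417, was lost without any of at least 3 of the 6 libraries (0.0503 to 0.171). Nfkbia and Cdkn1a were also counted among the glucocorticoid genes above. Of 24 voltage-gated potassium channels 1 was higher: Kcna5 was at 12.8, 10.7 and 11.7 CPM at 4 h and at 4.21, 5.49 and 4.67 CPM at 1 h (1.3, adjusted p = 0.000679), and differed by 1.16 between 4 h Sham and cervical cord.

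Clock genes were higher in part. Of 16 clock genes 6 were higher and 0 lower (3.5% and 1.89% of all genes), with a median of 0.28. From 3 to 6 were higher without 1 library, fewest without library 1 or 2 of the 1 h cords. Per2, a repressor of the clock and a glucocorticoid target, was at 38.4, 45.3 and 32.2 CPM at 4 h and at 19.8, 13.8 and 13.6 CPM at 1 h (1.29, adjusted p = 0.00146). Cry1, its partner, was at 40.9, 33.5 and 35.9 CPM against 21.7, 20.9 and 18.4 CPM (0.85, adjusted p = 0.000693). Both were fully apart, and the within-table difference of Per2 (0.71, adjusted p = 0.0977) passed with the 1 h mouse as a block (0.74, adjusted p = 0.0337). In unclamped cord, 7 of 16 clock genes were higher in 4 h Sham than in cervical cord (5.31% of all genes), Per2 by 0.58 and Cry1 by 0.37, and 1 was lower (5.25% of all genes). Nr1d1 (adjusted p = 0.0327), Tef (0.0366) and Nr1d2 (0.0378) lost their calls without any of 4 or 5 libraries (0.0508 to 0.189). The time of day at which cords were taken is not given in the sources used here.

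Inhibitory signalling is named in the series' title, and its main genes were not called between the times. Gad1, which makes GABA, was at 196, 206 and 190 CPM at 4 h and at 195, 165 and 180 CPM at 1 h (0.13, adjusted p = 0.369). The vesicular transporter Slc32a1 (-0.09, adjusted p = 0.491), the glycine transporter Slc6a5 (-0.03, adjusted p = 0.933), Gad2 (0.11, adjusted p = 0.634), Glra3 (0.05, adjusted p = 0.85) and the chloride exporter Slc12a5 (-0.16, adjusted p = 0.324) did not pass either. The glycine receptor gene Glra1 varied more, at 57.9, 75.2 and 30.0 CPM against 50.2, 38.2 and 60.4 CPM (0.13, adjusted p = 0.898). Of 33 genes of GABA and glycine signalling 1 was higher and 0 lower (median -0.06), where 3.5% of all genes were higher and 1.89% lower. The 1 gene was the chloride importer Slc12a2, at 462, 387 and 507 CPM against 315, 381 and 339 CPM (0.39, adjusted p = 0.0427). Its call was lost without library 1 or 3 of either time (0.0872 to 0.184). Of 38 glutamate genes 1 was higher, Homer1, and 3 lower, Grin2d, Grm4 and Grin2c (median -0.10), and the number lower ran from 0 without library 1 of either time or library 3 at 1 h to 6 without library 2 at 4 h. These 3 calls, at an adjusted p of 0.0226 to 0.0285, were lost without library 1 of either time or library 3 of the 1 h cords (0.0733 to 0.151).

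Summed levels of neuron, motor neuron and oligodendrocyte markers overlapped between the times. Chat, which makes acetylcholine in motor neurons, was at 19.6, 29.1 and 21.9 CPM at 4 h and at 29.9, 26.3 and 25.0 CPM at 1 h (-0.20, adjusted p = 0.456). In the within-table difference Chat was called higher by edgeR's test (adjusted p = 0.0364). That call was lost without any of 8 of the 12 libraries (0.0594 to 0.115), and a difference between cord regions does not cancel there. Sums of 12 neuron markers were 9116 to 9584 CPM at 4 h and 9260 to 10173 CPM at 1 h, and those of 12 motor neuron markers 545 to 604 and 534 to 563 CPM. Cervical cord held more of the motor neuron markers, 772 to 816 CPM. Of the 12 neuron markers 1 was lower (Stmn2), and of the 12 motor neuron markers 1 was higher (Calca), against 1.89% and 3.5% of all genes. Stmn2 (adjusted p = 0.0318) and Calca (0.0274) lost their calls without any of 5 and any of 4 libraries (0.0526 to 0.145). Sums of 10 oligodendrocyte markers, 30418 to 41542 and 30254 to 36773 CPM, overlapped widely. Pericyte and smooth muscle markers summed to 101 to 150 CPM at 4 h and 173 to 206 CPM at 1 h, with 0 higher and 1 lower (Rgs5, adjusted p = 0.0261) of 10, and Rgs5 lost its call without any of 4 libraries (0.0587 to 0.124). Without library 2 at 4 h, 5 of the 10 were lower (Rgs5, Vtn, Acta2, Myh11 and Abcc9; median -0.64). The sum was 106 to 158 CPM in 4 h Sham and 167 to 233 CPM in cervical cord. Of 16 caudal Hox genes tested 2 were lower (Hoxc9 and Hoxb8), and 0 without library 1 or 3 of the 1 h cords by edgeR's test. Among 10 rostral Hox genes tested, Hoxb6 alone was lower over the 6 libraries (-0.47, adjusted p = 0.00347). Hoxb6 kept its call without any 1 library. Hoxa10 was at 40.8, 33.7 and 37.0 CPM against 38.5, 45.7 and 43.4 CPM (-0.20, adjusted p = 0.287), while the within-table difference of Hoxa10, -4.06, came with the change of region between thoracolumbar and cervical cord.

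**Figure D5:**
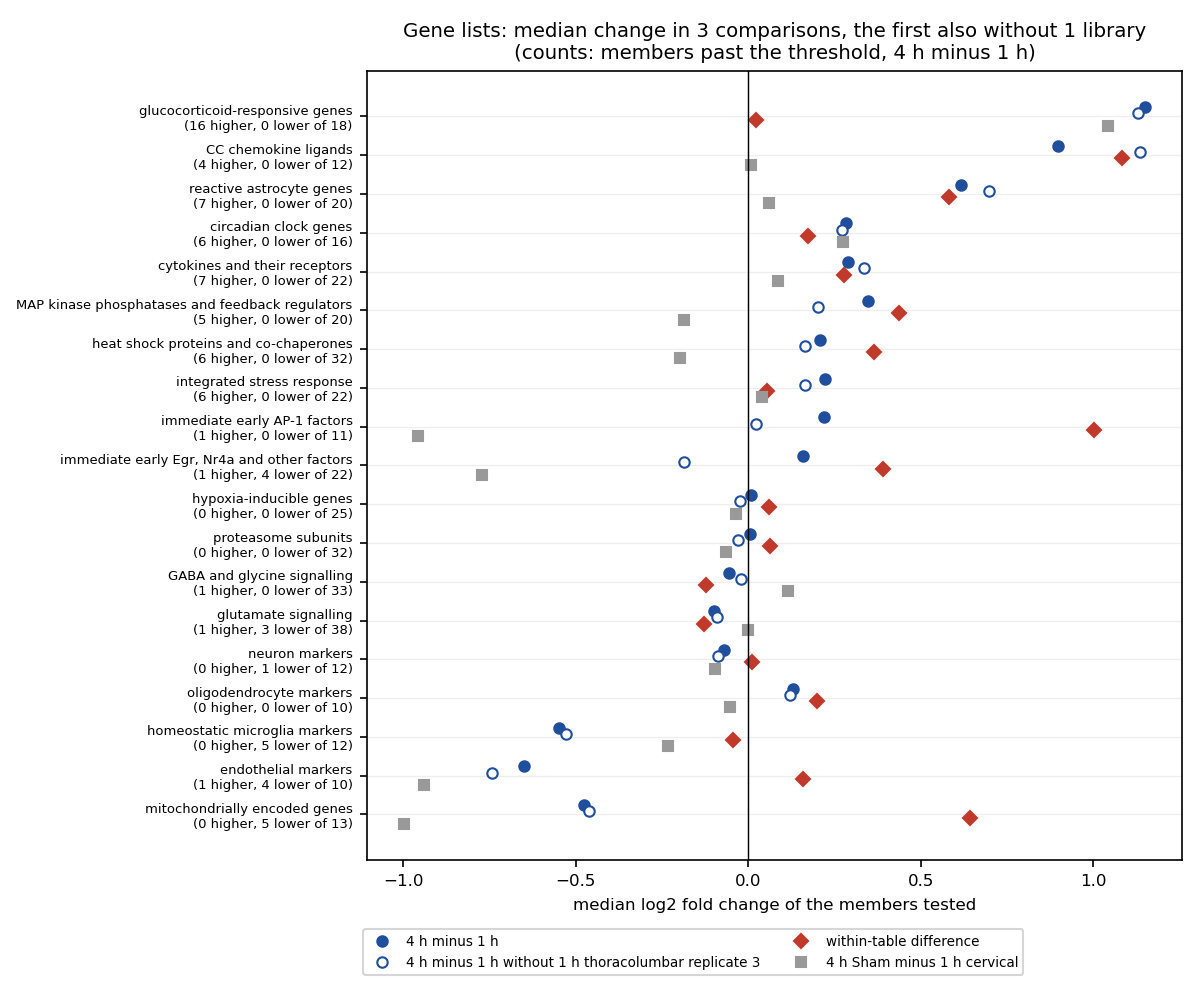
Median log2 difference of each gene list (rows) in the comparison of 4 h with 1 h clamped cord, with and without library 3 of the 1 h cords, and in the within-table and the 4 h Sham minus 1 h cervical comparison (x axis, log2 units). The glucocorticoid list sits at 1.15 between the times, at 1.04 between 4 h Sham and cervical cord and at 0.02 in the within-table difference, and the heat shock list at 0.21, -0.20 and 0.36.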

How the data were processed

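RNA-seq of poly-A-selected, dUTP-directional libraries was deposited by the authors as counts per gene, in 1 table for 4 h and another for 1 h, with libraries named by sample. The submitters' processing notes name fastp, HISAT2 2.0.5, featureCounts 1.5.0-p3 and the build GRCm38/mm10; the strand setting and annotation release are not given in the sources used here. The deposited counts were raw whole numbers, and 0 columns of other samples were left unused.

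Tables were joined by gene identifier. In R 4.3.3, edgeR 4.0.16 fitted the 6 clamped libraries (filterByExpr minimum count 10, TMM scaling, robust quasi-likelihood test, Benjamini-Hochberg adjusted p under 0.05), and a second fit of 12 libraries gave the within-table difference, the unclamped comparison and the CPM printed. DESeq2 1.42.0, other scalings, no count filter, single libraries left out and replicate blocks were alternatives. The procedure was tested on simulated data. The separate mice are the replicates.

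Genes named were the 10 with the largest difference in each direction (mean log2 CPM of at least 1, groups apart), the same among genes also called in the within-table difference, up to 3 per list, and a fixed set of injury, inhibitory and position genes. Further list members are named to account for a count, after their values were seen. Some genes are not reported here. Members and lists (51) were chosen with earlier results of these data known. Some genes stand in several lists, so the same call can be counted more than once and the lists are not separate responses. Per the labels, each 1 h mouse gave the thoracolumbar and the cervical library of 1 number; deviations of these pairs from their group means correlated at -0.0403, -0.0595 and 0.056 over 14122 genes.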

Additional observations from a re-analysis of the deposited data

How the results depend on the processing

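Depth limits genes near the count minimum, and 3 libraries a group limit small differences. Of 604 higher and 326 lower genes between 4 h and 1 h, the counts became 964 and 639 with no filter on low counts and 937 and 635 in the fit of 12 libraries. Leaving out 1 library gave 261 to 603 higher and 94 to 395 lower. The 4 h and 1 h mice share only a number, and a replicate block by that number gave 323 and 112 (same-numbered deviations correlated at -0.0493, -0.216 and -0.127). The within-table difference (156 and 85) gave 291 and 169 with DESeq2, 364 and 216 with no filter, 82 to 166 and 32 to 95 with 1 library left out, 164 and 71 with the 1 h mouse as replicate block and 133 and 62 by label number. The unclamped comparison gave 575 to 1149 higher and 488 to 1183 lower with 1 library left out. The causes were not tested. No scaling moved the median of all genes by over 0.1. Among values of named genes between 4 h and 1 h, 1751 stayed on the same side of the threshold with the same direction, and 213 lost and 4 gained a call. A further 17 changed sign with no call in either fit, or were called and had no adjusted p in the alternative. In all, 0 called values changed sign. In the within-table difference the numbers that stayed, lost a call, gained a call or moved in this way were 2427, 133, 44 and 94. Beyond the genes given in the report, the 1 h mouse block lost the call of Chac1 (adjusted p = 0.0726) and changed no other call of a named gene.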
